A study of Mus musculus with 8 samples.

Results

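Head-to-head gene pairs are neighbouring genes on opposite strands whose starts lie side by side and point away from each other, so that 1 stretch of DNA serves as the promoter of both. They were found in RefSeq's table of GRCm38.p6 genes among the protein-coding genes of the 19 autosomes, X and Y, with the minus-strand gene on the left and at most 1000 bp between the 5′ ends. There were 745 such pairs. They held 1482 genes, which is 6.88% of the 21535 coding genes with a known strand, and 8 genes belonged to 2 pairs, so some windows share sequence. Each pair was examined in a window from 1000 bp left of the left 5′ end to 1000 bp right of the right one. The 5′ ends lay a median of 101 bp apart, with quartiles of 48 and 234 bp, and 614 pairs lay within 300 bp. Just inside the limit stood Haghl/Ccdc78 at 994 bp, Ush1g/Otop3 at 995 bp and Pcgf2/Psmb3 at 1000 bp. Just outside it stood Serpina7/4930513O06Rik at 1007 bp and Myd88/Acaa1a at 1010 bp. Both phosphorylated forms marked Haghl/Ccdc78, Pcgf2/Psmb3 and Myd88/Acaa1a in all their libraries, whereas Ush1g/Otop3 and Serpina7/4930513O06Rik had no peak.

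The libraries came from MEL cells, a mouse erythroid leukaemia line, and were made by CUT&Tag, in which an antibody directs a transposase to cut and tag the chromatin near its target. The 2 antibodies recognise the tail of Rpb1, the largest subunit of RNA polymerase II, when it carries a phosphate on serine 5 (Ser5P) or on serine 2 (Ser2P). Each was used on 2 libraries of a line with knockdown of Myrlin, an RNA transcribed from the -81 kb enhancer of Myb (KD), and on 2 libraries of the dCAS control line. Both lines are dCAS lines, so dCAS is common to all 4 groups, and the labels do not say whether either line is a single clone. The 2 replicates of a group are named biological, but separate cultures are not described, so each p-value reflects only how much these libraries vary, and that variation may be technical.

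A head-to-head promoter is usually a nucleosome-poor CpG island that loads polymerase in both directions from 2 separate start sites. Polymerase receives the serine 5 mark as it initiates, and Ser5P is densest near promoters, while Ser2P accumulates as polymerase elongates into the gene. Head-to-head arrangement is known to be common among genes for DNA repair, mitochondrial proteins and the replication-dependent histones, whose H2A and H2B genes sit in such pairs.

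The stretches between the 5′ ends of the pairs to which the results return are given here, read from the RefSeq promoter sequences of GRCm38.p6, plus strand, left to right. The first and last base are the 5′ ends of the left and right gene. Capitals mark the 6 motifs searched on both strands: the GC box GGGCGG, the CCAAT box CCAAT, the ETS core CCGGAA, the NRF1 core TGCGCA, the YY1 core ATGGCGG and the TATA box TATAAA. The first 4 are histone pairs, shown as examples of those where all Ser5P values lay above all Ser2P values. Mrps12/Sars2 and Cenpp/Nol8 are not histone pairs and hold GC boxes, with Mrps12/Sars2 as a textbook pair and Cenpp/Nol8 for Ser2P over both genes. Ranbp1/Trmt2a had more Ser2P than Ser5P, and Atpif1/Dnajc8 had Ser5P in the KD line only.
H2bc13/H2ac13, chr13:21716183-21716412: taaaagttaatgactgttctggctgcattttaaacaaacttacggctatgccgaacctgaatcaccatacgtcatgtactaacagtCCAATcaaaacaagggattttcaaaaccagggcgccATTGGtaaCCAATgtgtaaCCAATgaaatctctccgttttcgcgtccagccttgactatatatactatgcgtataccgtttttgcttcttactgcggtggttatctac
H2ac11/H2bc11, chr13:22042949-22043198: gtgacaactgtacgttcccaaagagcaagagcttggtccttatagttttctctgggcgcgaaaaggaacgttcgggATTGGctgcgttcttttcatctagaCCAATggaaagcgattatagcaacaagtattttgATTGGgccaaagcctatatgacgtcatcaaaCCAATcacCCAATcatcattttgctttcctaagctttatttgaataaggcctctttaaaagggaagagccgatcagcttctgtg
H2ac15/H2bc15, chr13:21753912-21754076: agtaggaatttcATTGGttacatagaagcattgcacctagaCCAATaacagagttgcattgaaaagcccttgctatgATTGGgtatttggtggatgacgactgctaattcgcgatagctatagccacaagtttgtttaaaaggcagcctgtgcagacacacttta
H2ac22/H2bc22, chr13:21787248-21787483: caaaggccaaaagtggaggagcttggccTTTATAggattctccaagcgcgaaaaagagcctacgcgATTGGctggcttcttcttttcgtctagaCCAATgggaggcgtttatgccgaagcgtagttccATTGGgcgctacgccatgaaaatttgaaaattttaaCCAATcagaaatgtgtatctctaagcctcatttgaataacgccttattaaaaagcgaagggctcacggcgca
Mrps12/Sars2, chr7:28741821-28741957: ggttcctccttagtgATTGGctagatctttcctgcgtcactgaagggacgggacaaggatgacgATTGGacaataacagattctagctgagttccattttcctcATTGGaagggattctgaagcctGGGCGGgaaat
Cenpp/Nol8, chr13:49652950-49653078: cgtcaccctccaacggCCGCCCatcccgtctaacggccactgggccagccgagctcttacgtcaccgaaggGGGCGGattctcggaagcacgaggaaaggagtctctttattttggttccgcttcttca
Ranbp1/Trmt2a, chr16:18248694-18248847: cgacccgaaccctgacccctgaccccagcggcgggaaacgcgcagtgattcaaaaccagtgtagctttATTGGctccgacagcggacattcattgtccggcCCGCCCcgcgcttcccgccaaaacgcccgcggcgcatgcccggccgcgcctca
Atpif1/Dnajc8, chr4:132535450-132535559: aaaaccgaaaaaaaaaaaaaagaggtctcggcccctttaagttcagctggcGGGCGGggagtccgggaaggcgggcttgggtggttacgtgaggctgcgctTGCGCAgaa
The histone stretches held 4, 5, 3 and 4 CCAAT boxes in the order given and no GC box, and H2ac22/H2bc22 also held 1 TATA box. That of H2ac8/H2bc8, a further histone pair not shown, held 2 CCAAT boxes, 1 TATA box and no GC box. The GC content of H2bc13/H2ac13 was 40.9%, that of Cenpp/Nol8 59.7% and that of Ranbp1/Trmt2a 66.9%. Mrps12/Sars2 held 3 CCAAT boxes and 1 GC box, and Cenpp/Nol8 held 2 GC boxes.

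A promoter sequence of 250 bases before to 50 after a start within 100 bp of the gene's 5′ end was found for 1045 of the 1482 paired genes (70.5%) and for 11958 of the 19119 other genes (62.5%), where other genes have no second coding 5′ end within 1000 bp. Both are under 80%, so these shares describe the matched genes only. An ETS core was present in 44.6% of the matched paired promoters and in 16.1% of the matched other promoters. A GC box was present in 68.0% of the paired and 41.7% of the other promoters, and an NRF1 core in 19.9% and 9.13%. The YY1 core was present in 13.8% of the paired and 4.59% of the other promoters, and a CCAAT box in 46.3% and 40.3%. A TATA box ran the opposite way, with 5.17% of the paired and 16.1% of the other promoters. The ratio of observed to expected CpG had a median of 0.856 in the paired and 0.463 in the other promoters.

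Some of these gaps were smaller among promoters that carried Ser5P in all 4 of its libraries. The GC box was then in 69.1% of the paired and 70.6% of the other promoters, and the CCAAT box in 46.2% and 44.4%, while the ETS core was in 47.6% and 32.0% and the YY1 core in 14.4% and 9.4%. Motif matches overlapped rarely: a GC box shared bases with an ETS core in 18 and with a CCAAT box in 10 of the 1045 paired promoters, and the other combinations did so in at most 2. The 22 matched promoters of the 25 paired histone genes had another makeup. A CCAAT box was in all 22, a TATA box in 63.6%, a GC box in 27.3%, and an ETS core in 0%.

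Polymerase peaks were present at most head-to-head promoters in every library. Peaks were called for each library apart by the authors, and a window counted as marked where at least 1 bp lay under a peak. Ser5P marked 658 (88.3%) and 668 (89.7%) of the 745 windows in KD 1 and KD 2, and 664 (89.1%) in each control. Ser2P marked 665 (89.3%) and 662 (88.9%) in the KD libraries, and 667 (89.5%) and 645 (86.6%) in the controls. The groups overlapped, and Ser2P control 2 was the lowest. Ser5P minus Ser2P was 0.503 percentage points (two-sided exact permutation over 70 arrangements, p = 0.686). Within the KD line it was -0.0671 and within the control line 1.07 percentage points.

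Most pairs were marked in every library of an antibody. Ser5P was present in all 4 of its libraries at 643 pairs (86.3%, 95% Wilson interval 83.7 to 88.6%) and Ser2P in all 4 at 638 (85.6%). Both forms were present in all 8 libraries at 625 pairs (83.9%), against 28.8% of other genes. No peak was seen in any library at 68 pairs (9.13%), against 57.1% of other genes. The remaining 52 pairs (6.98%) were marked in 1 to 7 libraries, against 14.1% of other genes. No pair had Ser5P in all 4 libraries and Ser2P in none, which allows a share of up to 0.513% (Wilson), and the reverse also had 0 pairs. The shares of other genes were 0.136% and 0.0941%, which lie within that interval, so pairs are not set apart by these counts. Intervals cover counting error only.

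Of the 68 unmarked pairs, 6 are given as examples, picked after their values were seen. Peg3/Usp29 and Sgce/Peg10 are imprinted pairs, Duox2/Duoxa2 encodes the thyroid hydrogen peroxide oxidase and its maturation factor, and Plcz1/Capza3 is a sperm pair. The olfactory receptor pair Olfr181/Olfr183 and the heat-shock pair Hspa1a/Hspa1l also had 0 bp in all 8 libraries.

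Set beside the other genes in the same window of 1000 bp on each side of the 5′ end, paired genes were marked more often in each library. In Ser5P libraries 88.2% and 89.5% of paired genes were marked in KD and 88.9% and 89.0% in control, against 35.6% and 36.7% of other genes in KD and 35.9% and 36.4% in control. In Ser2P libraries the shares of paired genes were 89.1% and 88.7% in KD and 89.3% and 86.4% in control. For other genes they were 38.6% and 37.3% in KD and 37.1% and 32.5% in control. No paired share came near any share of other genes, and the difference was 52.4 percentage points over the 8 libraries (two-sided exact sign-flip permutation, p = 0.00781, the smallest it can give). It was 52.7 percentage points for Ser5P and 52.0 for Ser2P. A window of a paired gene also holds its partner's start, so either gene can mark it. With the 1000 bp inside the gene alone the difference was 49.3 percentage points, but a peak that spans both starts marks that stretch too, so the parts of the 2 genes cannot be told apart.

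**Figure D1:**
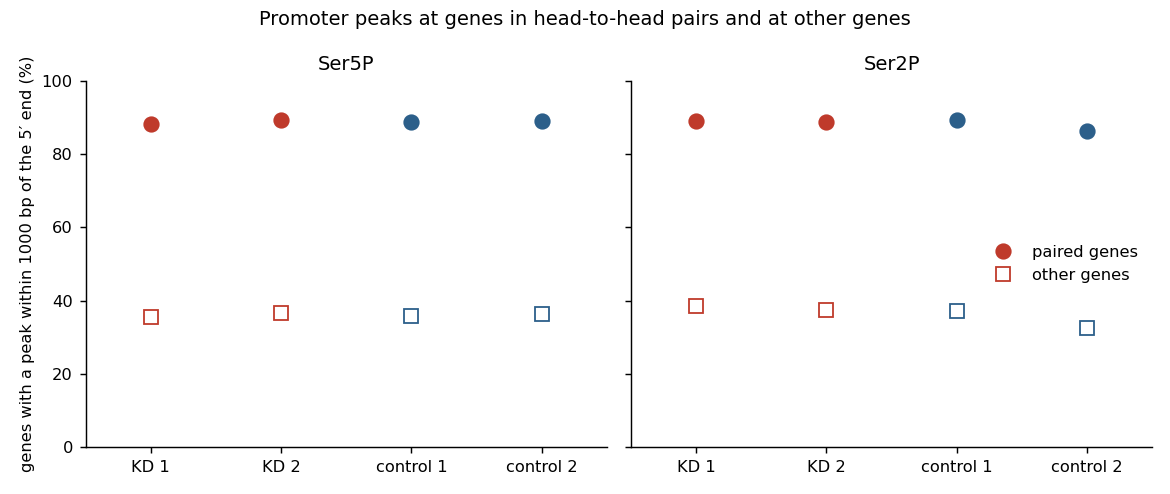
Share of genes with a peak within 1000 bp of the 5′ end (vertical axis, percent) in each library, for Ser5P (left panel) and Ser2P (right panel), with filled circles for the 1482 paired genes, open squares for the 19119 other genes, KD in red and control in blue. The paired genes lie between 86.4% and 89.5%, and the other genes between 32.5% and 38.6%.

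Peaks at paired genes also reached over more DNA, and the extra length lay on the partner's side. In marked windows Ser5P covered a median of 904 and 922 bp at paired genes in KD and 827 and 867 bp in control. At other genes it covered 715 and 753 bp in KD and 672 and 693 bp in control. Ser2P covered 899 and 872 bp at paired genes in KD and 781 and 628 bp in control, against 753 and 721 bp at other genes in KD and 650 and 522 bp in control. Each library had the longer coverage at paired genes, by a mean of 152.625 bp (exact sign-flip permutation, p = 0.00781). In the first 1000 bp inside the gene alone the sign turned, and paired minus other genes was -51.6 bp (exact sign-flip permutation, p = 0.00781). A partner's peak that reaches only a little past the start also counts a paired gene as marked there, with few bp. The test therefore cannot show that paired genes carry less coverage of their own.

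Coverage on the 2 sides of the 5′ end gives the place of the extra length. Ahead of the gene, mean Ser5P coverage was 519 and 533 bp at paired genes in KD and 487 and 505 bp in control, against 306 and 320 bp at other genes in KD and 300 and 313 bp in control. Inside the gene it was 389 and 407 bp at paired genes in KD and 356 and 374 bp in control, against 429 and 446 bp at other genes in KD and 392 and 400 bp in control. The ratio of upstream to downstream coverage was 1.36 ± 0.0471 at paired genes and 0.731 ± 0.0407 at other genes (SD over libraries, n = 8). It lay between 1.31 and 1.46 in the 8 libraries at paired genes and between 0.666 and 0.781 at other genes, so the groups did not overlap. The difference was 0.630 (exact sign-flip permutation, p = 0.00781). More coverage upstream than downstream at paired genes largely follows from the layout of their windows. The test therefore cannot show a property of paired genes beyond that layout.

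**Figure D2:**
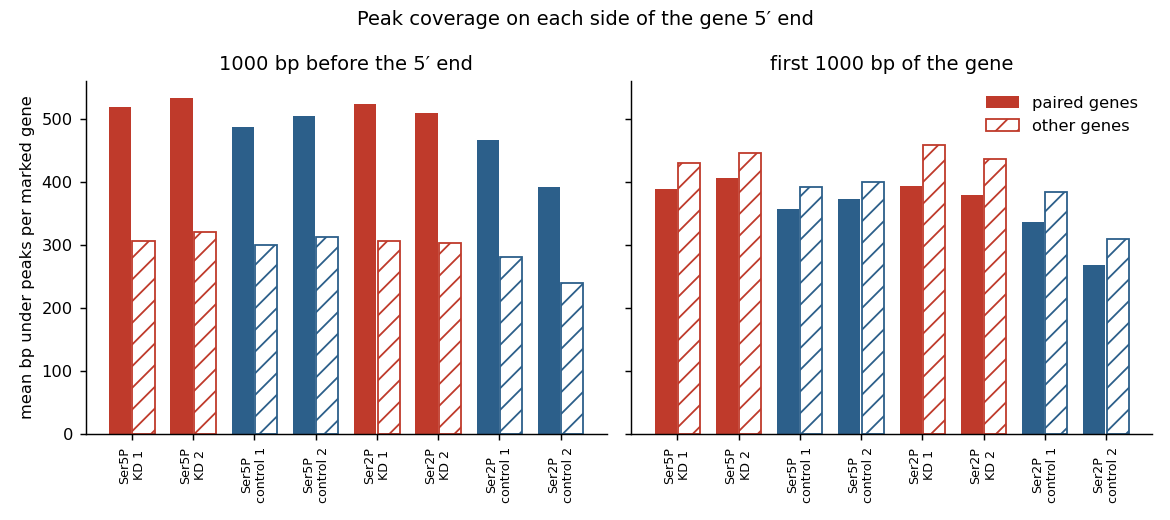
Mean length under peaks (vertical axis, bp) per marked gene in the 1000 bp before the 5′ end (left panel) and in the first 1000 bp of the gene (right panel), with 1 filled bar for paired genes and 1 hatched bar for other genes per library, KD in red and control in blue. In each library the filled bar is taller on the left and shorter on the right.

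Coverage was also averaged around promoters with Ser5P in all 4 libraries. Left and right of a pair follow the chromosome and not a gene, so an average over pairs does not show whether single pairs are lopsided, and its shape is not set against that of other genes, which run in the direction of transcription. At the midpoint between the 5′ ends, Ser5P peaks covered 93.7 ± 0.629% of these pairs, against 79.1 ± 0.64% of other genes at the 5′ end (SD, n = 4). At 500 bp to the left and right of the midpoint, 38.4 ± 2.89% and 39.2 ± 3.96% of pairs were covered. For other genes it was 23.4 ± 2.01% at 500 bp before and 39.7 ± 3.56% at 500 bp inside the gene. At 1000 bp the pairs had 4.98% on the left and 5.72% on the right, and other genes had 4.74% before and 13% inside the gene.

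Ser2P covered 91.6 ± 4.46% of pairs at the midpoint and 77.6 ± 6.77% of other genes at the 5′ end, and 31.7% and 32.0% of pairs at 500 bp to each side. Ser2P control 2, the shallowest library, had the lowest curve.

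**Figure D3:**
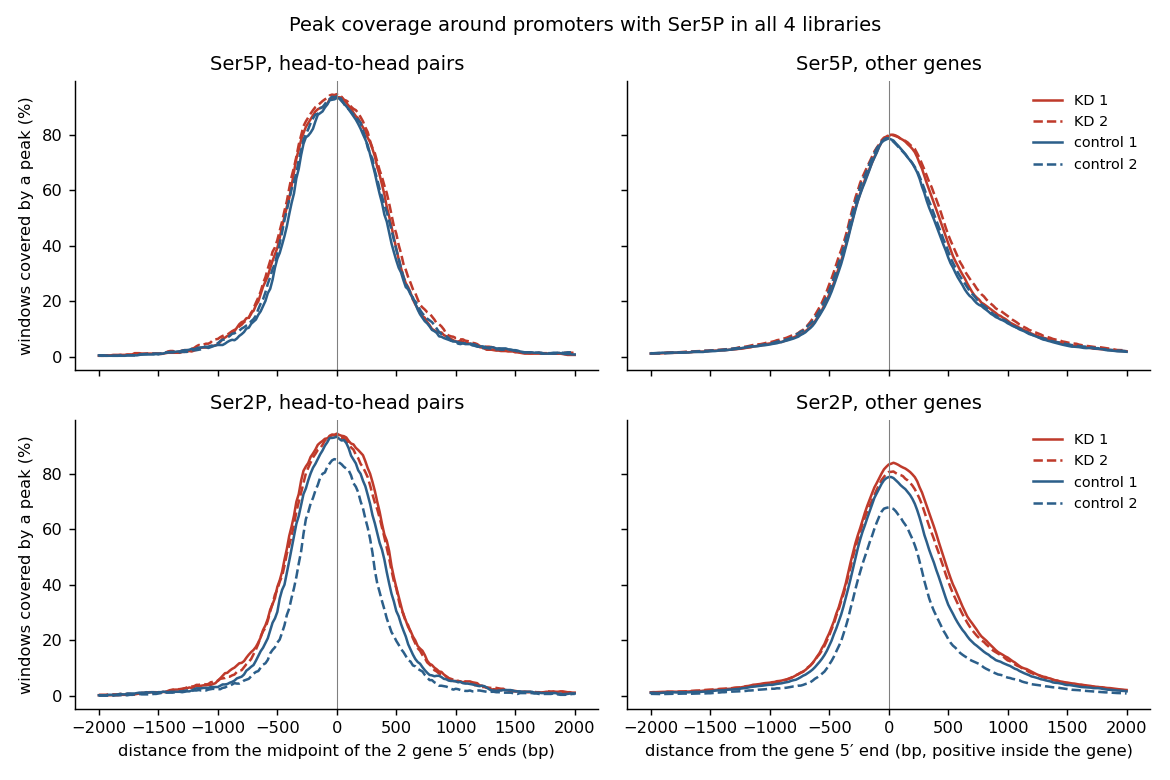
Share of promoters covered by a peak (vertical axis, percent) by distance from the midpoint of the 2 gene 5′ ends for pairs (left) and from the gene 5′ end for other genes (right, positive inside the gene), for promoters with Ser5P in all 4 libraries, with Ser5P peaks above and Ser2P peaks below and 1 line per library (KD red, control blue). At 0 the Ser5P curves average 93.7% for pairs and 79.1% for other genes. Left and right of a pair follow the chromosome, so the evenness of its curves says nothing of single pairs.

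One peak usually lay over both starts. In marked windows a single Ser5P peak spanned both 5′ ends at 85.9% and 86.8% of pairs in KD and 84.9% and 84.8% in control. For Ser2P it was 89.5% and 87.9% in KD and 85.5% and 75.8% in control. Ser5P minus Ser2P was 0.940 percentage points (exact permutation, p = 0.943), and without Ser2P control 2 it was -2.01. Marked windows held between 1.04 and 1.07 peaks on average. The widest single Ser5P peaks, by the narrowest of the 4 libraries, were those of H2ac20/H2bc21 (2102 bp), Tbc1d17/Akt1s1 (2031 bp), a Rab GTPase activator beside a substrate of the kinase Akt, and Rnf123/Mst1 (1900 bp), a ubiquitin ligase beside a secreted ligand.

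The share of windows with 1 peak over both starts was lowest for the pairs farthest apart. For Ser5P the share was 91.9 ± 1.94% at the 194 pairs 1 to 50 bp apart and 91.2 ± 1.48% at the 164 pairs 101 to 200 bp apart (SD, n = 4). It was 75.3 ± 3.81% at the 67 pairs 301 to 500 bp apart and 39.0 ± 4.34% at the 64 pairs 501 to 1000 bp apart. Ser2P gave 91.2 ± 5.4% in the nearest and 34.8 ± 11.0% in the farthest class. The widest Ser5P peak per window had a median width of 809.6 ± 57.6 bp in the nearest and 935.5 ± 52.3 bp in the farthest class. A peak of a given width covers near starts more readily than far ones, so some fall with distance is built into the measure. Ser5P was in all 4 libraries at 88.1% of the nearest pairs, at 94% of those 301 to 500 bp apart and at 62.5% of the farthest.

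**Figure D4:**
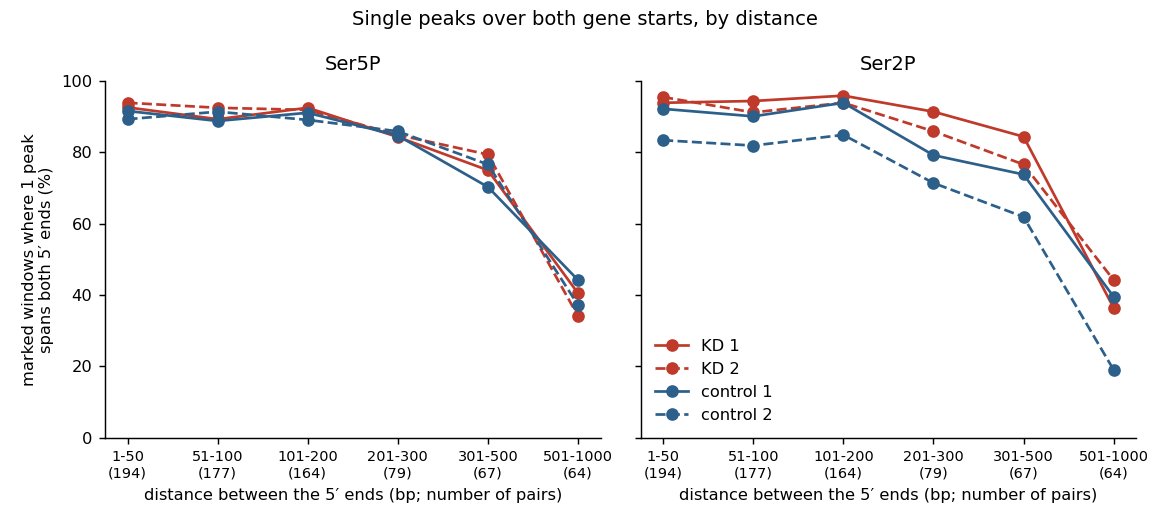
Share of marked pair windows in which 1 peak spans both 5′ ends (vertical axis, percent) by distance between the 5′ ends (horizontal axis, bp, number of pairs in brackets) for Ser5P (left) and Ser2P (right), 1 line per library (KD red, control blue). All 8 lines are lowest in the farthest class, and the Ser5P mean is 39.0% in the farthest class.

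Summits, the highest point of each peak, lay in the left gene, the gap and the right gene. Each outer zone is 1000 bp long, while the gap has a median length of 101 bp. Similar shares therefore mean that summits were denser per bp in the gap. Of all Ser5P summits in the windows, 30.1% and 26.8% lay between the 5′ ends in KD and 31.5% and 30.4% in control. Of Ser2P summits 31.2% and 32.5% lay there in KD and 33.3% and 32.3% in control. Ser5P minus Ser2P was -2.60 percentage points (exact permutation, p = 0.0571), a difference that did not pass 0.05, and its p was 0.0286, with -3.21 percentage points, without Ser5P control 1. The strongest summit lay a median of 104.5 to 121.75 bp from the midpoint in the Ser5P libraries.

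Many pairs kept to a side. Among the 643 pairs with Ser5P in all 4 libraries, 364 (56.6%) had the strongest summit on the same side in each, 140 in the left gene, 110 between the starts and 114 in the right gene. Ser2P kept 1 side at 359 of 638 pairs. Of the 269 pairs with a constant side in both forms, 266 (98.9%) had the same side and 1 had opposite genes. At Mcm4/Prkdc, which joins a subunit of the replicative helicase to the catalytic subunit of the DNA-dependent protein kinase, the strongest summit lay 158 or 159 bp to the right of the midpoint, inside Prkdc, in each of the 8 libraries. At Gart/Son, a purine synthesis enzyme beside a splicing factor, the starts are 852 bp apart. The strongest Ser5P summit lay at -217 and -213 bp from the midpoint in KD and at -217 and -213 bp in control, and that of Ser2P at -215 and -220 bp in KD and at 305 and 374 bp in control, where negative is to the left. All 8 were between the starts.

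Ser2P was also examined over the genes themselves. A gene counted as marked where a Ser2P peak lay anywhere between a point 1000 bp into the gene and a point 3000 bp beyond its 3′ end. A peak at an inner start, or at a neighbouring gene's start within that stretch, marks the gene too. A mark therefore does not by itself show elongation through the gene. Both genes of a pair were marked at 27.2% and 25% of pairs in KD and at 24.6% and 14.4% in control. Exactly 1 gene was marked at 48.6% and 49.7% in KD and at 47.7% and 45.6% in control. Of the paired genes taken singly, 51.5% and 49.8% were marked in KD and 48.4% and 37.2% in control. At such shares, marking the 2 genes independently of each other also leaves many pairs with exactly 1 marked gene. These counts alone therefore do not set head-to-head pairs apart. Both genes were marked 6.64 percentage points more often in KD (exact permutation, p = 0.33, the smallest that 2 libraries against 2 allow), and without control 2 the difference was 1.54. Relative depth, read from the background of each list, moved the same way, with 1.12 and 1.03 in the KD libraries and 0.780 and 0.439 in the controls, and its part in this was not tested.

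Over the 4 Ser2P libraries, 75 pairs had both genes marked each time, among them Cenpp/Nol8, a centromere protein gene beside a nucleolar protein gene, and Med22/Rpl7a, a Mediator subunit beside a large-subunit ribosomal protein. At 154 pairs 1 gene was marked in all 4 and its partner in none. The marked gene was the longer one in 123 of these (79.9%), with medians of 21.3 kb for marked and 8.2 kb for unmarked genes, and the part of gene length in this was not tested. Usp5/Cdca3 was such a pair: Usp5, a deubiquitinase, was marked in all 4 and Cdca3, a mitotic regulator, in none, although a single peak spanned both starts in all 8 libraries. At Eif3k/Map4k1, a translation initiation factor subunit beside a blood-cell kinase, Map4k1 was marked in all 4 and Eif3k in none. The strongest Ser5P summit lay in the Ser2P gene at 21 of the 154 pairs, in the partner at 29, between the starts at 28, and had no constant side at 76.

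The right gene was marked at 49.4 ± 7.15% of pairs whose left gene was marked and at 46.7 ± 7.13% of pairs whose left gene was not (SD, n = 4). The difference within a library averaged 2.65 percentage points and was positive in all 4 (exact sign-flip permutation, p = 0.125, the smallest that 4 libraries allow). Among genes with promoter Ser5P in all 4 libraries, a Ser2P peak marked the same stretch at 48.0 ± 6.74% of paired genes and 59.3 ± 7.39% of other genes. Paired minus other was -11.3 percentage points and negative in each library (exact sign-flip permutation, p = 0.125). Promoter Ser5P of a paired gene may belong to its partner, since the window holds both starts. Genes that are themselves inactive can thus enter the paired set, and their part in this difference was not tested. Median gene length was 16.9 kb over all paired genes and 17.3 kb over all other genes, and not only over those with Ser5P.

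The histone pairs had the widest gaps between Ser5P and Ser2P, a group singled out after the values were seen. Over all pairs, covered bp was higher in all 4 Ser5P than in all 4 Ser2P libraries at 51 of the 677 pairs with a peak in at least 1 library (7.53%), against 4.96% of all promoter windows with a peak. The reverse held at 4 pairs (0.591%), against 0.834% of all windows. Of the 51, the 8 with the widest separation were all histone pairs, and 10 of the 13 histone pairs were among them; the remaining 3, H2bc23/H2ac23, H2ac24/H4bc24 and H2bc1/H2ac1, had no peak at all. H2A and H2B form the outer dimers of the nucleosome, and their transcripts end in a stem-loop instead of a poly(A) tail. Over the 13 pairs the median of mean covered bp was 1291 bp for Ser5P and 443.75 bp for Ser2P, beside 832 and 758 bp over all pairs.

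At H2bc13/H2ac13 Ser5P peaks covered 1197 and 1437 bp in KD and 1291 and 1411 bp in control, whereas Ser2P covered 0 and 0 bp in KD and 249 and 0 bp in control. At H2ac11/H2bc11 Ser5P covered 1327 and 1371 bp in KD and 1220 and 1389 bp in control, against 485 and 459 bp for Ser2P in KD and 495 and 336 bp in control. Neither pair showed any overlap between the 2 forms, and the lowest Ser5P value exceeded the highest Ser2P value by 948 and 725 bp. At H2ac15/H2bc15 Ser5P covered 1500 and 1503 bp in KD and 1505 and 1468 bp in control, and Ser2P covered 1202 and 939 bp in KD and 585 and 353 bp in control. Ser5P stayed above Ser2P there too, and Ser2P was lower in both controls, which were also shallower.

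The count of 10 histone pairs was also found with lists of equal length and with −log10 q of at least 5. It was 9 when only pairs with starts at most 300 bp apart were kept. Leaving out a library also gave 10, but could give nothing else. The rule only becomes easier to meet, and the other histone pairs have no peak. The same order was seen outside pairs: of the 42 unpaired histone genes with a peak, 35 had all Ser5P above all Ser2P and 0 had the reverse. Histone genes of 1 cluster are near-identical copies, and how reads that fit several copies were placed is not given in the sources used here, so values of single histone pairs are uncertain. The remaining 41 of the 51 pairs held other genes, the widest gap among them at Ppp1r15a/Plekha4, named after its values were seen, with 1308 and 1308 bp of Ser5P in KD and 1073 and 1008 bp in control, against 812 and 666 bp of Ser2P in KD and 422 and 262 bp in control. Ppp1r15a is the stress-induced GADD34. The count of 51 was 86 without Ser5P control 1, 83 without Ser2P KD 1 and 79 without Ser2P KD 2, where fewer libraries have to be apart by construction.

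The 4 pairs with all Ser2P above all Ser5P, also named after their values were seen, were Ranbp1/Trmt2a, Cetn4/Bbs12, Ftsj3/Psmc5 and Entr1/Pmpca. At Ranbp1/Trmt2a, a regulator of the Ran GTPase beside a tRNA methyltransferase, Ser5P covered 1519 and 1571 bp in KD and 999 and 1139 bp in control. Ser2P there covered 1639 and 1728 bp in KD and 1728 and 1723 bp in control. At Ftsj3/Psmc5, an rRNA methyltransferase beside a proteasome ATPase, Ser5P covered 1086 and 1139 bp in KD and 1143 and 1075 bp in control, and Ser2P 1234 and 1242 bp in KD and 1324 and 1161 bp in control. The separation was 68 bp at the first and 18 bp at the second. The count was 21 without Ser2P control 2, 12 without Ser5P KD 2 and 7 without Ser5P control 2.

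**Figure D5:**
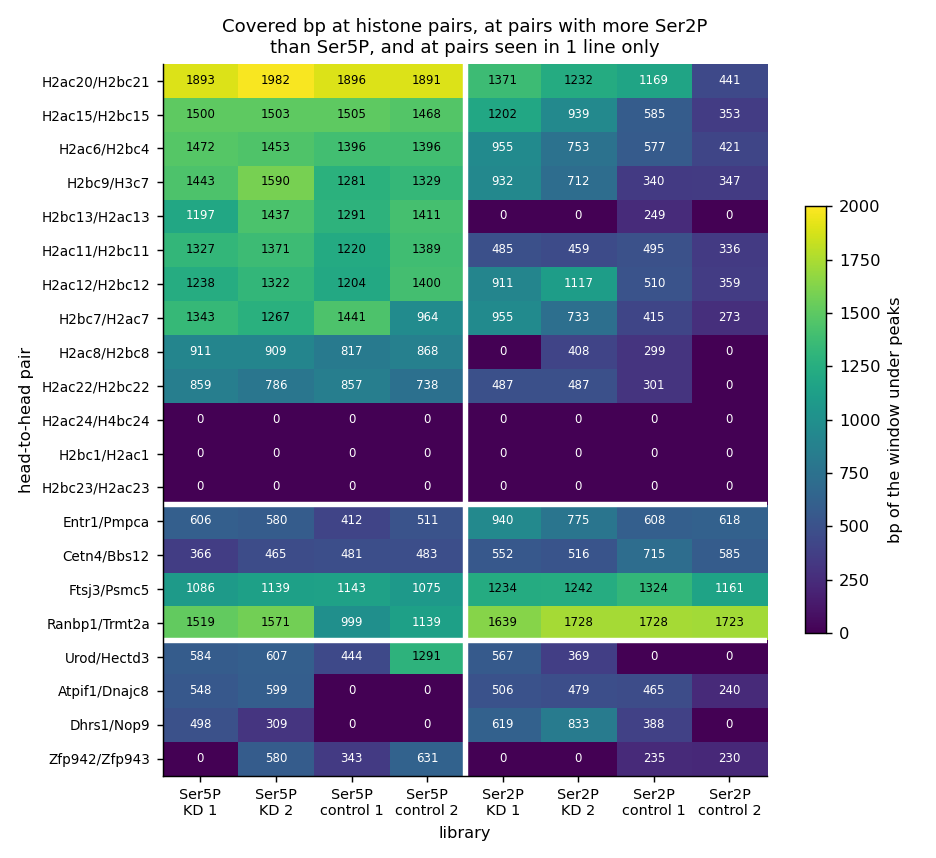
Length of the pair window under peaks (colour and printed number, bp) in each library (columns, Ser5P left of Ser2P and KD left of control), for the 13 histone pairs, the 4 pairs with Ser2P above Ser5P and 4 pairs with Ser5P in KD only or Ser2P in 1 line only, from top to bottom. Ser5P exceeds Ser2P in all 10 marked histone pairs, and H2ac20/H2bc21 has the most, 1982 bp in Ser5P KD 2.

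In the other listed groups of at least 10 pairs, Ser5P was in all 4 libraries at between 12 of 17 pairs (chaperone and heat-shock) and all pairs of a group. Pairs with a gene for DNA replication or repair numbered 34, all with Ser5P in all 4 libraries, and their genes made up 34 of the 129 in the list (26.4%, beside 6.88% of all coding genes). Pairs with a mitochondrial ribosome or respiratory chain gene numbered 51, again all with Ser5P in all 4, and took in 54 of 186 listed genes (29.0%). RNA processing had 35 of 36 pairs with Ser5P in all 4, transcription machinery 24 of 24, translation factors and tRNA synthetases 18 of 18, and cytosolic ribosomal proteins 13 of 14. The exception, named after its values were seen, was Rnf151/Rps2, with no peak at the outer 5′ ends of the table. Zinc-finger pairs were marked in all 4 at 17 of 21. Chromatin modifiers had 9 of 10, cell cycle and mitosis 21 of 22, and proteasome and ubiquitin conjugation 14 of 15 pairs. The share over all pairs was 86.3%.

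Coverage is given for 3 pairs of these groups and the textbook list. At Pxmp2/Pole, a peroxisomal membrane protein beside the catalytic subunit of DNA polymerase epsilon, Ser5P covered 1568 and 1480 bp in KD and 1316 and 1381 bp in control. Ser2P covered 1275 and 1241 bp in KD and 1200 and 747 bp in control. Ser5P was higher throughout, and Ser2P control 2 was the lowest. At Mrps12/Sars2, a mitochondrial ribosomal protein beside the mitochondrial seryl-tRNA synthetase, Ser5P covered 827 and 844 bp in KD and 867 and 730 bp in control, and Ser2P 802 and 654 bp in KD and 575 and 700 bp in control, with overlapping ranges. At Polr1c/Yipf3, a subunit of RNA polymerases I and III beside a Golgi protein, Ser5P covered 748 and 726 bp in KD and 728 and 594 bp in control, against 852 and 784 bp of Ser2P in KD and 766 and 706 bp in control, again with overlap.

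Presence at head-to-head promoters differed little between the lines. KD minus control was -0.134 percentage points for Ser5P (exact permutation, p = 1) and 1.01 for Ser2P (p = 1, exact permutation), and without Ser2P control 2 the second was -0.47. Ser5P was present in both KD and neither control library at 2 of 745 pairs (0.268%), against 0.423% of all promoter windows and 1.01% of those with a Ser5P peak. The reverse held at 1 pair (0.134%), against 0.478% and 1.14%. For Ser2P each direction had 1 pair, against 1.15% of all windows and 2.65% of those with a Ser2P peak for KD alone, and 0.206% and 0.477% for control alone. Each share of pairs lay below the share of all windows, but with 1 or 2 pairs per count this order does not set pairs apart.

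At Atpif1/Dnajc8, the inhibitor of the mitochondrial ATP synthase beside a J-domain protein, Ser5P covered 548 and 599 bp in KD and 0 bp in both controls, while Ser2P was present in all 4 libraries. At Dhrs1/Nop9, a dehydrogenase beside a ribosome assembly factor, it covered 498 and 309 bp in KD and 0 bp in both controls. At Urod/Hectd3, which holds the haem synthesis enzyme uroporphyrinogen decarboxylase and was the 1 member of the 45 listed erythroid genes in a pair, Ser2P covered 567 and 369 bp in KD and 0 bp in both controls, with Ser5P in all 4 libraries. At Zfp942/Zfp943, 2 zinc-finger genes, Ser2P covered 0 bp in both KD libraries and 235 and 230 bp in control. Dhrs1/Nop9 and Zfp942/Zfp943 were not called with −log10 q of at least 5 or with lists of equal length. With 1 library left out the Ser5P counts ranged from 2 to 6 for KD alone and from 2 to 10 for control alone, the 10 without KD 2. The Ser2P counts ranged from 1 to 19 and from 1 to 3, the 19 without control 1.

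Covered length was greater in KD, as it was across all promoters. The widest peak per marked window had a median of 899.5 and 920.5 bp in KD and 818.5 and 851.5 bp in control for Ser5P, and of 893 and 871.5 bp in KD and 776 and 620 bp in control for Ser2P. KD minus control was 75 bp for Ser5P and 184 bp for Ser2P (exact permutation, p = 0.33 for each, the smallest possible), and the Ser2P value was 106 bp without control 2. The median width of all peaks in each list moved the same way: 533.5 and 532 bp in KD and 486 and 497 bp in control for Ser5P, and 478 and 479 bp in KD and 428 and 381 bp in control for Ser2P. Ser5P coverage was higher in both KD than in both control libraries at 202 of 676 pairs (29.9%), against 25.1% of all windows with a peak, and lower at 48 (7.1%), against 11.2%. For Ser2P it was higher at 356 of 673 pairs (52.9%), against 45.5%, and lower at 13 (1.93%), against 2.21%. Depth and width differed between the lines in the same direction, and their part in these counts was not tested.

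In limma on the covered share of all promoter windows, no pair passed an adjusted p of 0.05 in either direction for either form, against 0% of all windows in each case. The smallest adjusted p among pairs was 0.376 for Ser5P, at Atpif1/Dnajc8, and 0.241 for Ser2P. At an unadjusted p under 0.05, 35 pairs were higher and 9 lower in KD for Ser5P (5.18% and 1.33%, against 6.45% and 2.3% of all windows). For Ser2P 96 pairs were higher and 1 lower (14.3% and 0.149%, against 14.2% and 0.465%). These counts rest on single libraries: the 96 was 46 without KD 1, 53 without control 2 and 158 without control 1, and the 1 was 7 without control 2, 3 without KD 2 and 2 without control 1. The Ser5P 35 was 60 without KD 1, and the 9 was 18 without KD 2 and 16 without control 1.

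The lists held 21574 to 25441 peaks for Ser5P and 20793 to 32125 for Ser2P, and relative depth ran from 0.439 to 1.12. As a check of the cell type, 5 of 10 erythroid marker genes had Ser5P in all 4 libraries, among them Nfe2, Tal1, Klf1 and Epor, while Slc4a1, Gata1 and Alas2 had no peak in any at the outer 5′ end. Of 10 lymphoid markers 0, and of 10 neuronal and epithelial markers 1 (Syn1), had Ser5P in all 4.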

How the data were processed

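The submitters' processing notes name Bowtie2 (2.3.5) and MACS2 (2.2.7.1), beside deepTools (3.3.1), Picard (2.21.4), SAMtools (1.9) and cutadapt (2.7), and the build GRCm38, or mm10. How peak calling was set, and whether a control library entered it, is not given in the sources used here. The authors deposited 1 MACS2 list per library, with a display score for each peak, its fold enrichment over local background, its −log10 p and −log10 q, and its summit offset. Fold values ranked summits within a list, and scores were not used. Read totals were not used, so relative depth is the commonest background pileup solved from fold and p of each list, and intervals cover counting error only.

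Genes came from RefSeq GRCm38.p6. Strand came from the RefSeq promoter table (17492 genes), or from GENCODE vM1 by symbol (3649) or synonym (394). For 352 genes it was not found, and 427 pairs with crossing or equal 5′ ends were not taken. The 5′ end is the outer end of a gene, so inner starts are not seen. The other genome build supplied gave no coordinates.

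Libraries were compared with exact permutation and sign-flip tests (Python 3.11.15, numpy 2.4.6, pandas 2.3.3, scipy 1.17.1, figures with matplotlib 3.10.9). Covered shares of all promoter windows were tested with limma 3.58.1 in R 4.3.3, with Benjamini-Hochberg adjustment. It was also run on simulated shifts, with normal values of a common SD at windows marked in every library of an antibody. The real shares also hold zeros, so that run does not show how many real shifts would be found. Replicate numbers were not treated as pairing the libraries, since deviations of same-numbered libraries correlated at 0.0441 for Ser5P and 0.00167 for Ser2P.

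The pairs named were the textbook pairs found, up to 6 called pairs per antibody and direction, 2 pairs per gene list with the most Ser5P and the 3 with the widest Ser5P peak. Some pairs this rule takes are not reported here, and pairs named outside it are marked as such. Members and lists were chosen with earlier results of these data known. Alternatives were −log10 q of at least 5, equal list lengths, a 500 bp flank, at most 300 bp between starts, at least 200 bp covered, the inside of the gene alone, an arcsine transform, a replicate block in limma and leaving out each library. Added after seeing the data were the upstream window alone, the replicate block between Ser5P and Ser2P, the sign-flip test on Ser2P over partner genes and the counts of pairs with 1 form above the other.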

Additional observations from a re-analysis of the deposited data

Results flagged for a closer look

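The share of summits inside the right gene moved in opposite directions in the 2 forms. For Ser5P it was 33.5% and 35.4% in KD and 32.3% and 33.0% in control, a difference of 1.81 percentage points, and for Ser2P 29.6% and 31.3% in KD and 31.6% and 32.7% in control. This difference between the forms was not tested.

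Among 104 sets of 4 libraries examined, 1 library stood apart from the other 3 in 10, and chance alone marks about 1 set in 20. In Ser2P control 2, the shallowest library, covered length was low at Pxmp2/Pole (747 bp), Atpif1/Dnajc8 (240 bp) and Rnf123/Mst1 (1257 bp). In Ser2P control 1 it was high at Rpl36al/Mgat2 (1316 bp) and low at Eif3k/Map4k1 (1280 bp). In Ser2P KD 1 it was low at Ranbp1/Trmt2a (1639 bp). For Ser5P it was high at H2ac20/H2bc21 in KD 2 (1982 bp), low at H2ac15/H2bc15 (1468 bp) and Polr1c/Yipf3 (594 bp) in control 2, and low at Proser3/Hspb6 in control 1 (1289 bp).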

How the results depend on the processing

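Of the differences in presence between KD and control, that of Ser5P changed sign with −log10 q of at least 5 (0.336 percentage points), with equal list lengths (0.336), with 200 bp covered (0.0671) and with libraries left out (-0.805 to 0.537). That of Ser2P ranged from -0.47 to 2.48 with libraries left out. Ser5P minus Ser2P presence was 1.11 with equal lists (exact permutation, p = 0.0286) and -0.157 to 0.828 with libraries left out, and the share of pairs with 1 peak over both starts -2.01 to 2.54. Summits between the starts gave -2.97 with equal lists (exact permutation, p = 0.0286) and -3.21 to -1.64 with libraries left out. The width of the widest peak, Ser5P minus Ser2P, was 25.7 bp without Ser2P control 2 and up to 117 bp with other libraries left out, and KD minus control for Ser2P 106 to 262 bp. Covered bp of paired minus other genes was -51.6 inside the gene alone. Ser5P KD-only pairs numbered 5 with −log10 q of at least 5 and 2 to 6 with libraries left out, and control-only pairs 2 to 10. Ser2P KD-only pairs numbered 7 with −log10 q of at least 5, 5 with equal lists, 2 with a 500 bp flank, 0 within 300 bp and 1 to 19 with libraries left out. Ser2P control-only pairs numbered 0 with −log10 q of at least 5, 0 with equal lists and 1 to 3 with libraries left out. Pairs with all Ser5P above all Ser2P numbered 53 to 86 with libraries left out. The reverse numbered 4 to 21, and 2 with a 500 bp flank. Fewer libraries have to be apart when 1 is left out, and otherwise the cause was not tested. Dhrs1/Nop9 and Zfp942/Zfp943 lost their calls as the report states. With the replicate block, Ser5P minus Ser2P was 0.503 for presence (p = 0.75), 82.4 bp for width (p = 0.125), -2.60 for summits (p = 0.125) and 0.940 for spanning (p = 1, all exact sign-flip permutations), and limma with the replicate block called 0 pairs, with 36 higher and 10 lower in KD for Ser5P and 80 and 0 for Ser2P at an unadjusted p under 0.05. On the arcsine scale the 96 Ser2P pairs were 58. The difference in presence between paired and other genes lay between 49.3 and 56.1 percentage points in all alternatives run. With 2 libraries a group, no exact test between KD and control can pass 0.05, and peak lists carry presence and width but no read counts.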
